A study of Mus musculus with 15 samples.

Results

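Gastrocnemius muscle of exercised aged mice with high and low frailty was compared 24 h after downhill running, in 8 of the 15 mice of the series. The members were the 4 libraries labelled frail 24h and the 4 labelled robust 24h, chosen by these labels and by no measured value. They are called High Run and Low Run here, since a mouse with at least 2 positive frailty markers was placed in the High group and a mouse with at most 1 in the Low group. The remaining 7 mice were cage sedentary, 3 High Control and 4 Low Control. All were female C57BL/6JN mice older than 17 months with no transgene or drug treatment, and the running mice had completed 2 bouts on a treadmill declined by 22 degrees at 13 m/min. Frailty was assigned after the fact from physical tests, body weight and a frailty index, so the groups are phenotypes within one aged cohort and not induced states. The labels give an individual mouse for every library and no sequencing batch.

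Downhill running loads muscle while it lengthens, which strains sarcomeres and is followed by a wave of stress signalling, immune cell entry and repair. Immediate early genes such as Fos, Junb and Egr1 encode transcription factors that are switched on within minutes of contraction, growth factor or calcium signals and decay quickly. The tissue also holds cells other than muscle fibres, among them the Schwann cells that wrap motor and sensory axons, resident macrophages, vessels and the red cells within them, and bulk RNA is a mixture of all of these. In such a mixture, fewer cells of a type and less RNA per cell cannot be told apart.

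Total counts per mouse were 23186828 to 30699216 in High Run and 19395125 to 26003872 in Low Run, and 16920 of 55450 genes passed the filter on low counts. Skeletal muscle fibre markers summed to between 149790 and 187630 CPM (counts scaled to the effective library size) in the exercised mice, with each of the 7 markers detected in each library. Neutrophil markers were at 344.6 CPM in Low Run mouse D68 and between 3.17 and 58.4 CPM in the other exercised mice. Markers of T, B and NK cells were at 10.1 CPM in Low Run mouse D61 and at most 1.58 CPM in the others. Erythroid markers were at 3549 CPM in High Run mouse D53 and between 226.8 and 1243 CPM in the others. High Run mouse D62 lay apart on the first principal component, which held 31.5% of the variance, at 69.5 against values from -35.9 to 21.7 in the other 7 mice, and results that rest on these mice are given with and without them.

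The exercised groups were not separated by any gene at the study's threshold. By edgeR's quasi-likelihood F-test, 0 of 16920 genes (0.0%) passed a false discovery rate (FDR) of 0.1, and the smallest adjusted p was 0.999. Without adjustment, 424 genes (2.51%) had p under 0.05, with 257 (1.52%) higher and 167 (0.987%) lower in High Run. That is below the share of 0.05 which this threshold gives on average where no gene differs. In 122 genes (0.721%) each High Run mouse lay above each Low Run mouse, and in 131 genes (0.774%) each lay below. Because 0 genes passed the FDR, single genes are given below with the SE and 95% confidence interval of the log2 difference, High Run minus Low Run, from the edgeR fit, and each had an adjusted p of at least 0.999. An unadjusted p under 0.05 serves only to count and rank genes. DESeq2 on all 15 mice also called 0 genes, whereas DESeq2 on the 8 exercised mice alone called 3, all lower in High Run: Egr1, Ier2 and Junb.

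Whole profiles of the mice were compared next. The Euclidean distance on log2 CPM averaged 85.0 between a High Run and a Low Run mouse (62.4 to 114.5, 16 pairs), 84.1 within Low Run (67.4 to 100.2, 6 pairs) and 91.8 within High Run (65.4 to 108.4, 6 pairs). The mean of the crossing pairs minus the mean of the pairs within groups was -2.92, and an exact one-sided permutation test for a larger distance between groups gave p = 0.857, where 0.0286 is the smallest value that 70 arrangements allow. The nearest mouse to High Run mice D49 and D52 was Low Run mouse D66, and the nearest to D53 was Low Run mouse D57. Of the total variance over the 8 mice, 11.5% lay between the groups. With so few mice such a share is well above 0 even where no gene differs. It is therefore not read as the size of a frailty difference. Without High Run mouse D53 the difference changed sign, to 0.204 with an exact permutation p = 0.514.

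**Figure D1:**
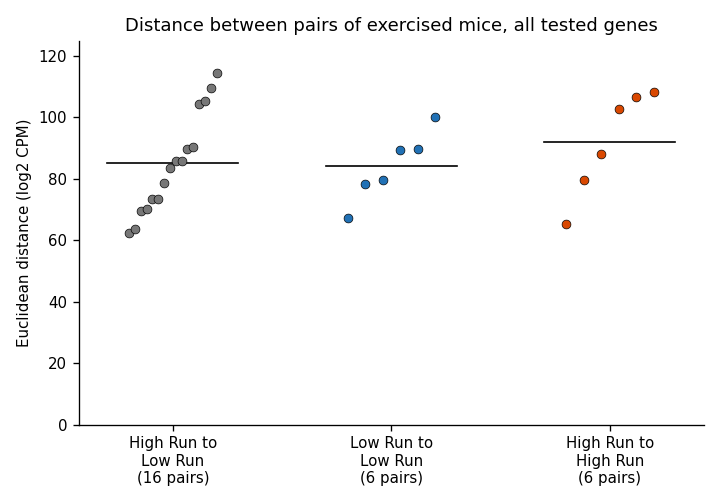
Euclidean distance on log2 CPM of all tested genes (vertical axis) for each pair of exercised mice (points), split by whether the pair crosses groups, with the mean as a line. The 16 crossing pairs run from 62.4 to 114.5 and cover the range of the pairs within either group.

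Missing the threshold does not make genes alike, so the width of the intervals was examined. For 5170 genes (30.6%) the 95% confidence interval of the log2 difference between High Run and Low Run lay wholly within 0.5 of 0, and for 12321 (72.8%) within 1. The median distance from an estimate to either end of its interval was 0.492. In a gene at that median, an estimate smaller than this leaves 0 inside the interval. The intervals are not adjusted for the number of genes tested. Likeness within 0.5 was most frequent among genes of oxidative metabolism, at 14 of 17 tricarboxylic acid cycle genes, 18 of 25 mitochondrial import genes and 28 of 40 subunits of complexes II to V. In contrast, 0 of 24 immediate early, 0 of 14 Schwann and nerve and 0 of 11 erythroid genes had so narrow an interval. The 10 most abundant genes, of the contractile apparatus, calcium pumping or energy supply of muscle fibres (Acta1, Atp2a1, Ckm, Myh4, Tnnt3, Ttn, Actn3, Aldoa, Tnnc2 and Tpm1), had log2 differences from -0.20 to 0.02, overlapped between groups and had intervals reaching from -0.64 to 0.46.

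Immediate early genes were the list with the most members without overlap between the mice of the 2 groups. Of the 24 tested, 6 were lower and 0 higher in High Run at p under 0.05, against 0.987% and 1.52% of all genes, and 21 of the 24 log2 differences were negative with a median of -0.30, beside 0.01 over all genes. In 5 of them, Egr1, Fos, Fosb, Junb and Ier2, no High Run mouse reached the level of any Low Run mouse. Over all genes 0.774% were lower without overlap. Fos and Fosb encode partners of Jun proteins in the AP-1 transcription factor, Junb encodes such a partner, and Egr1 encodes a zinc finger factor. The upstream sequences of the 3 members of the AP-1 family are shown because their RNAs lay apart together, each as the 250 bases before the RefSeq transcription start on GRCm38.p6, 5′ to 3′ on the strand of the gene, with TGACG, the core of the cAMP response element, in capitals. The sequences of Egr1 and Ier2, whose RNAs also lay apart, are not shown. Fos lies on the plus strand (chr12:85473640-85473889), and Fosb (chr7:19310046-19310295) and Junb (chr8:84978749-84978998) lie on the minus strand.
Fos: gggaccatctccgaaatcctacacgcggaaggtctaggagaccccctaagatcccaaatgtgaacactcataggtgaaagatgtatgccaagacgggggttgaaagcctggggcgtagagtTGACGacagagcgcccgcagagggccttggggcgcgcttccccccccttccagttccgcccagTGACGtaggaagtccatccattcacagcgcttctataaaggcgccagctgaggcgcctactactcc
Fosb: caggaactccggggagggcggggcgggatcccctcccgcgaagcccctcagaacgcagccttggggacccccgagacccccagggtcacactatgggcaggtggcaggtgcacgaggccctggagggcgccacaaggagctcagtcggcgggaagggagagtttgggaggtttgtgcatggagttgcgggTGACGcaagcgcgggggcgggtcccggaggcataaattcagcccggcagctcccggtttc
Junb: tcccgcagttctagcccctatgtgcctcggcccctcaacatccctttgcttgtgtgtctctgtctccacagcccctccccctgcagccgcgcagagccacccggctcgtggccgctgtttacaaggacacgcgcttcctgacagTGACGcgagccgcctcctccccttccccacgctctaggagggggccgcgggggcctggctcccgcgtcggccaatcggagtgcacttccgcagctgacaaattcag

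The first base of the motif stood at -129 and -66 in Fos, at -60 in Fosb and at -106 in Junb, counted back from the start. On either strand, TGACG occurred in 17.8% of all 32851 upstream windows in the RefSeq table and in 16 of the 25 windows found for 19 of the 24 immediate early genes, some of which overlap because a gene has several starts. The CArG box, the site of serum response factor, was in 1.47% of all windows and in 5 of these 25, from 2 genes. A match is a description of the letters and says nothing of binding in these muscles.

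Egr1 stood at 39.2, 25.2, 17.0 and 17.6 CPM in High Run mice D49, D52, D53 and D62 and at 72.3, 96.0, 82.1 and 200.5 CPM in Low Run mice D57, D61, D66 and D68. The lowest Low Run mouse was thus well above the highest High Run mouse, and D68 was higher than the other 3. The means were 24.7 ± 10.4 CPM (SD, n = 4) in High Run and 113 ± 59.3 CPM (SD, n = 4) in Low Run, a log2 difference of -2.19 (SE 0.60, 95% interval -3.47 to -0.90). Fos was at 36.7, 47.9, 12.7 and 14.8 CPM in High Run and at 67.3, 68.5, 106.5 and 222 CPM in Low Run. Its log2 difference was -2.05 (SE 0.65, 95% interval -3.43 to -0.67), so the mean level in Low Run was about 4 times that in High Run, and D68 was again the highest mouse. Fosb had the largest log2 difference of the list, with 13.4, 5.22, 3.63 and 2.20 CPM in High Run and 18.96, 38.8, 33.8 and 97.9 CPM in Low Run, a log2 difference of -2.96 (SE 1.02, 95% interval -5.12 to -0.80).

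Junb was at 28.6, 20.6, 21.8 and 37.4 CPM in High Run and at 64.1, 48.8, 50.6 and 113.8 CPM in Low Run, with a log2 difference of -1.35 (SE 0.48, 95% interval -2.38 to -0.33). Ier2, an immediate early nuclear regulator, was nearly uniform in High Run at 7.86 to 10.5 CPM and ran from 18.8 to 47.9 CPM in Low Run, with a log2 difference of -1.53 (SE 0.48, 95% interval -2.56 to -0.50). The separation was not shared by the whole family. Dusp1, a phosphatase that switches off MAP kinases and was named after its values were seen, had a log2 difference of -0.66 (95% interval -1.31 to -0.01), lost p under 0.05 without any 1 of D49, D53, D62, D66 and D68 (-0.35 without D68), and overlapped between groups, from 32.6 to 71.4 CPM in High Run and from 52.97 to 143.9 CPM in Low Run. Jun, the main Fos partner, had a log2 difference of -0.16 (95% interval -0.88 to 0.57), and Egr2 lay near 0 (95% interval -0.86 to 0.85).

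Low Run mouse D68 was the highest exercised mouse for each of the 5 separated genes and also carried the most neutrophil marker RNA, and the part of the latter in these differences was not tested. Without D68 the log2 difference was -1.76 for Egr1, -1.53 for Fos and -1.01 for Junb, which no longer had p under 0.05. At that threshold 5 members of the list were then lower, beside 255 over all genes tested. Among sedentary mice the separated genes varied as widely, with Egr1 between 53.5 and 160.6 CPM in High Control and between 33.1 and 257 CPM in Low Control. The High minus Low difference of Egr1 in control mice was 0.31, and the interaction of frailty and running was -2.50 (SE 0.85, adjusted p = 0.600).

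**Figure D2:**
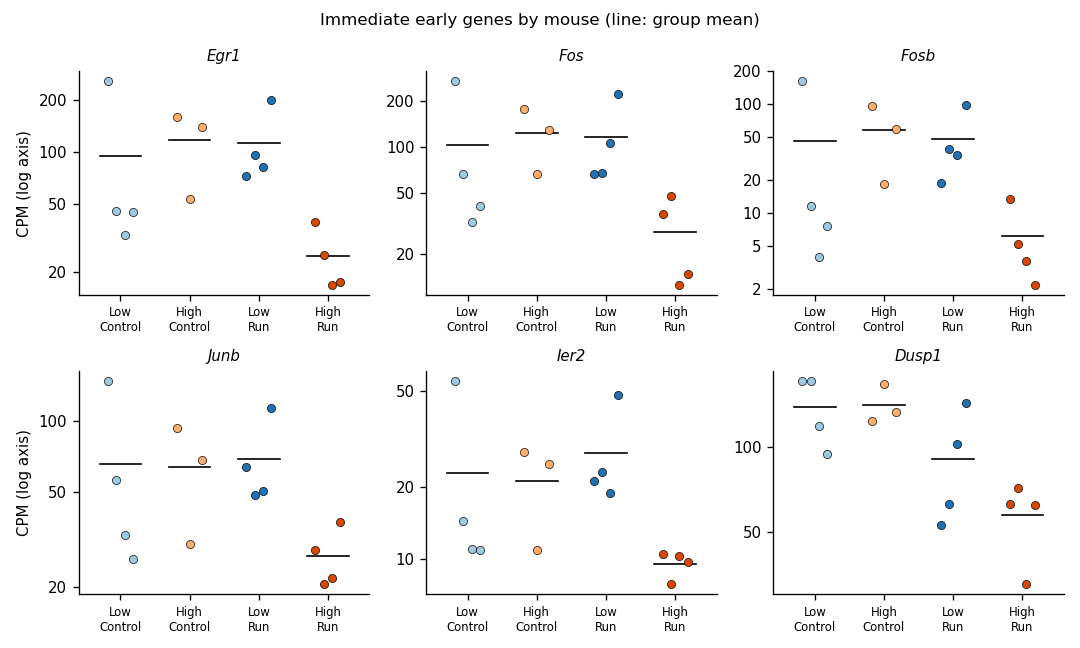
CPM of 6 immediate early genes (vertical log axes) in each mouse (points) of the 4 groups, with the group mean as a line. For Egr1, Fos, Fosb, Junb and Ier2 the 4 High Run mice lie below the 4 Low Run mice, while the control mice spread over both ranges for the first 4 of these and lie above the High Run range for Ier2.

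Genes of Schwann cells, which form the myelin of peripheral nerve, were, with the erythroid genes, 1 of the 2 lists with most members higher in High Run. Of 14 tested, 7 were higher and 0 lower at p under 0.05, against 1.52% and 0.987% of all genes, with a median log2 difference of 0.65. Among them, Mbp, Pmp22 and Ncmap encode proteins of myelin, and Prx and Mal encode proteins that organise the myelin sheath. Of the 14, 2 lay higher without overlap between groups, against 0.721% of all genes, Mal among them. Mal was at 4.61, 7.06, 6.38 and 12.0 CPM in High Run mice D49, D52, D53 and D62 and at 2.65, 4.54, 2.00 and 4.31 CPM in Low Run mice D57, D61, D66 and D68, a log2 difference of 1.15 (SE 0.35, 95% interval 0.42 to 1.89). D49 was barely above D61, and D62 was the highest mouse.

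In Mbp, Prx, Pmp22 and Ncmap D49 lay among the Low Run mice. Mbp was at 34.9 CPM in D49 and at 65.2, 67.1 and 120.2 CPM in D52, D53 and D62, compared with 21.1 to 41.2 CPM in Low Run, a log2 difference of 1.06 (SE 0.32, 95% interval 0.38 to 1.74). Prx reached 13.9, 31.8, 20.5 and 47.9 CPM in High Run against 7.63 to 19.2 CPM in Low Run (log2 difference 1.24, SE 0.36, 95% interval 0.47 to 2.00). Pmp22 (0.69, SE 0.22, 95% interval 0.22 to 1.15) and Ncmap (1.18, SE 0.45, 95% interval 0.22 to 2.13), named after their values were seen, went the same way, and Ncmap lost p under 0.05 without D62 (0.70) or D66 (0.98). Sox10, the transcription factor that defines the Schwann lineage, had a log2 difference of 0.56 (95% interval -0.06 to 1.19) and overlapped.

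Kcna2 and Kcna6, subunits of the potassium channels that sit on myelinated axons beside the nodes, were among the genes without overlap. Kcna2 was at 6.22, 8.35, 6.11 and 12.2 CPM in High Run and at 3.70, 5.62, 3.45 and 3.61 CPM in Low Run, where D61 was the highest, with a log2 difference of 1.00 (SE 0.24, 95% interval 0.49 to 1.51). Kcna6 was at 1.61 to 3.28 CPM in High Run and 1.15 to 1.44 CPM in Low Run (log2 difference 0.90, SE 0.23, 95% interval 0.41 to 1.39). Summed over the whole Schwann and nerve list, the level was 169 to 470 CPM in High Run and 127 to 220 CPM in Low Run, with D62 highest and D66 lowest. Schwann markers summed to 55.5 to 163 CPM in High Run and 40.3 to 82.0 CPM in Low Run, and their part in the result was not tested. Without D62 the list had 5 members higher at p under 0.05 and a median of 0.46, and without D66 it had 5 and 0.58. Over all genes tested, 179 were higher without D62 and 231 without D66. In sedentary mice the median difference of the list was 0.07 with 0 members at p under 0.05.

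**Figure D3:**
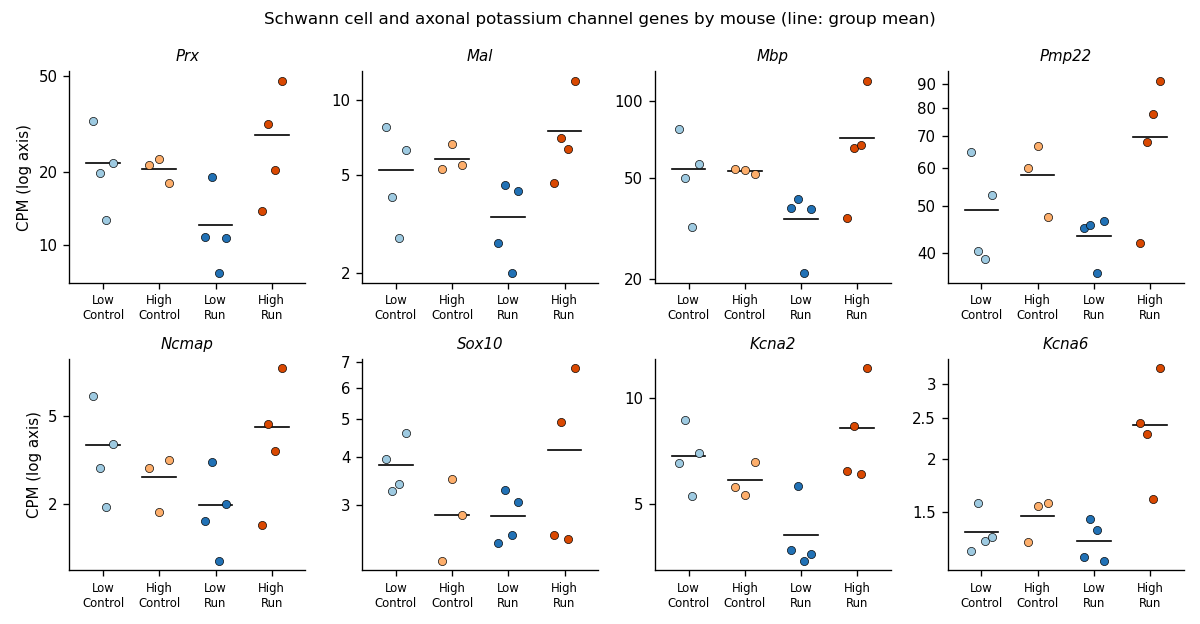
CPM of 6 Schwann cell genes and the axonal potassium channel genes Kcna2 and Kcna6 (vertical log axes) in each mouse (points) of the 4 groups, with the group mean as a line. Mal, Kcna2 and Kcna6 do not overlap between the run groups, and in the other 5 genes the lowest High Run mouse lies within the Low Run range.

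Further protein-coding genes without overlap belonged to varied families. Prkd1, which encodes protein kinase D1, had the smallest unadjusted p of these, with 4.24, 4.21, 4.53 and 6.99 CPM in High Run and 1.85, 2.703, 2.47 and 2.76 CPM in Low Run. Its log2 difference was 1.03 (SE 0.21, 95% interval 0.58 to 1.49), with means of 4.99 ± 1.34 and 2.45 ± 0.416 CPM (SD, n = 4 each). Prkd1 passed p under 0.05 under each of the 17 alternatives, as did Kcna2 and Kcna6 among others. The alternatives reuse the same mice, and Prkd1 was named for its small p, so this is no independent evidence. Eln, encoding the elastic fibre protein elastin, was at 30.2, 40.8, 36.4 and 44.7 CPM in High Run and at 20.9, 17.6, 26.6 and 28.7 CPM in Low Run (log2 difference 0.70, SE 0.17, 95% interval 0.34 to 1.06). Lox, whose product cross-links elastin and collagen, was at 20.5, 30.5, 23.5 and 35.5 CPM in High Run and at 17.7, 6.23, 14.4 and 20 CPM in Low Run (log2 difference 0.92, SE 0.46, 95% interval -0.05 to 1.89). Lox was the 1 gene higher without overlap, with 0 lower, among 29 tested genes of the extracellular matrix and fibroblast list. Over all genes 0.721% were higher without overlap. Of the 29, 0 had p under 0.05, and Eln was not on that list. Plekha7, a component of cell junctions, was at 2.26 to 4.84 CPM against 1.30 to 2.13 CPM (0.93, SE 0.26), and Adcy1, an adenylyl cyclase, at 0.705 to 2.02 against 0.420 to 0.685 CPM (1.35, SE 0.40).

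Etnppl and Vat1l were higher in High Run at low levels. Etnppl, a phospholyase of phosphoethanolamine, was at 0.383 to 1.48 CPM in High Run and at 0 to 0.200 CPM in Low Run, so its log2 difference of 2.79 (SE 0.76) rests on few counts. Vat1l was at 1.03 to 2.96 and 0.341 to 0.852 CPM (1.55, SE 0.43). On the lower side, apart from the immediate early genes, stood Cfap52, a protein of motile cilia, at 0.126 to 0.329 CPM in High Run and 0.468 to 1.47 CPM in Low Run (-1.88, SE 0.49). Trim8, a ubiquitin ligase, had a small but tight difference, at 26.9 to 35.8 CPM in High Run and 41.3 to 46.3 CPM in Low Run (-0.42, SE 0.12, 95% interval -0.67 to -0.16). Reep6, an endoplasmic reticulum membrane protein, was at 2.68 to 4.56 and 4.76 to 6.22 CPM (-0.55, SE 0.18), and Fam221b at 0.409 to 0.591 and 0.631 to 1.25 CPM (-0.98, SE 0.31).

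The 8 inflammation-associated genes singled out by the study were next compared between the exercised groups, although they had been chosen on these mice and are no independent evidence. The study reported them for High Run against High Control, a different contrast from High Run against Low Run. In control mice 5 of the 8 were lower and 0 higher in High at p under 0.05, against 687 and 305 of 16920 genes. These were Ccl8, Ctss, Ifi47, Isg20 and Mpeg1, and Low Control mouse D11 was the highest control mouse for each. For Ccl8 it was at 11.3 CPM, against 0.373 to 0.811 CPM in the other Low Control mice. For Mpeg1 it was at 9.77 CPM, against 6.95 to 8.65 CPM. In run mice, besides Fosb and Junb, 1 of the remaining 6, Isg20, had p under 0.05. Isg20, an interferon-stimulated exonuclease, was at 5.52, 3.30, 19.98 and 4.79 CPM in High Run and at 3.62, 2.74, 4.26 and 5.06 CPM in Low Run, so that D53 alone stood above the Low Run range by a wide margin. Its log2 difference of 1.10 (SE 0.49, 95% interval 0.06 to 2.14) became 0.21 without D53, and p under 0.05 was lost without any 1 of D53, D57, D61 and D66. The interferon-inducible GTPases Ifi47 (-0.32, 95% interval -1.22 to 0.57) and Iigp1 (-0.79, -2.32 to 0.75), the macrophage pore protein gene Mpeg1 (-0.04, -0.57 to 0.50), the chemokine gene Ccl8 (-0.68, -2.42 to 1.07) and the lysosomal protease gene Ctss (0.33, -0.29 to 0.95) had intervals that included 0. Iigp1 was at 95.1 CPM in Low Run mouse D57 and between 4.76 and 30.2 CPM in the other 7 mice.

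Chemokine and cytokine genes had a median log2 difference of -0.89, with 7 lower and 0 higher of 22 tested at p under 0.05, against 0.987% and 1.52% of all genes, and low levels in most members. The number lower was 2 without D62, 3 without D52 or D61, and 10 without D49, and the median was -0.54 without D61 and -0.63 without D68. Over all genes tested, the number lower was 126 without D62, 179 without D52, 171 without D61 and 254 without D49. Cxcl9, an interferon gamma-induced attractant of T cells, was at 1.73, 1.67, 1.31 and 0.567 CPM in High Run and at 11.1, 11.1, 2.09 and 0.902 CPM in Low Run (log2 difference -2.27, SE 0.64, 95% interval -3.63 to -0.90). D57 and D61 were high and D68 was within the High Run range. Cxcl10, a related chemokine, was also highest in D57 and D61 in Low Run (5.84, 4.29, 1.96 and 1.203 CPM) and was at 1.03 to 2.22 CPM in High Run (-1.17, SE 0.43), and without D57 the difference was -0.75 and no longer passed p under 0.05. Ptgs2, the inducible prostaglandin synthase, was at 0.126 to 1.15 CPM in High Run and 0.925 to 2.56 CPM in Low Run (-1.77, SE 0.69), and lost p under 0.05 without D53, D61 or D62. Among further members named after their values were seen, Ccl5 was highest in D61 at 4.97 CPM, and Cxcl2 and Socs3 were highest in D68 at 6.47 and 27.8 CPM. The log2 difference of Ccl5 went from -1.63 to -0.41 without D61, and those of Cxcl2 and Socs3 from -3.30 to -1.03 and from -0.99 to -0.59 without D68, and each then had p above 0.05. Leaving out D52 or D62 also took each of the 3 past that threshold, as did D53 for Cxcl2 and D49 or D61 for Socs3. When only genes with at least 10 counts in every mouse were tested, 2 members were lower and the median of those left was -0.07.

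The lymphocyte genes Cd3e and Cd79a stood high in a single mouse. Cd3e, of the T cell receptor complex, was at 3.17 CPM in D61 and at 0.200 to 0.639 CPM in the other 7 exercised mice, and Cd79a, of the B cell receptor complex, was at 5.22 CPM in D61 and at 0.168 to 0.724 CPM in the others. Both had p under 0.05 (log2 differences -1.43 and -1.88) and lost it without D61 (-0.10 and 0.17), and the median of the 12 tested genes of the list went from -1.36 to 0.17. Both also lost p under 0.05 without D49 or D53, Cd3e without D62 and Cd79a without D52. Of the 12 genes, 2 were lower at p under 0.05, against 0.987% of all genes. Without D68 the number was 8, beside 255 over all genes tested. Summed over the 17 listed genes, untested ones included, the level was 1084 CPM in D61, 570 CPM in D66, 383 CPM in D62 and 45.9 to 234 CPM in the other 5 exercised mice. Of 21 macrophage genes 1 was higher and 0 lower, against 1.52% and 0.987% of all genes, 8 differences were positive and 13 negative, from -0.84 to 0.54, and 0 had an interval within 0.5 of 0. The median of -0.04 became 0.11 without D62, 0.08 without D57 and -0.25 without D49. The gene that was higher was Cd163, a haemoglobin scavenger receptor, at 14.2 to 27.2 CPM in High Run and 11.5 to 14.0 CPM in Low Run (0.54, SE 0.24, 95% interval 0.03 to 1.04). D49 was the highest mouse, the difference was 0.27 without it, and p under 0.05 was lost without any 1 of D49, D61, D66 and D68. Gpnmb and Trem2, which mark lipid-handling macrophages, were higher in High Run (0.88, SE 0.32 and 0.90, SE 0.38), Gpnmb at 17.0 to 33.4 against 10.1 to 16.7 CPM without overlap and Trem2 at 1.10 to 2.02 against 0.301 to 1.35 CPM with overlap. They were 2 of 16 genes of that list, against 1.52% of all genes, whose median was 0.30, and 0.15 without D53 and 0.19 without D62, with 1 member higher at p under 0.05 in each case. Over all genes tested, 575 were higher without D53 and 179 without D62. Of the 16 genes of the lipid-handling macrophage list, 10 had positive and 6 negative differences, from -0.51 to 0.90. Gpnmb lost p under 0.05 without D62 (0.70), and Trem2 without any 1 of D49, D52, D53, D66 and D68 (0.64 without D68).

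Erythroid genes had the most positive median of the lists, 1.60, with 7 higher and 0 lower of 11 tested at p under 0.05, against 1.52% and 0.987% of all genes, but no member was without overlap. Hbb-bs, an adult beta-globin gene, was at 629, 263, 2743 and 863 CPM in High Run mice D49, D52, D53 and D62 and at 185, 164, 396 and 547 CPM in Low Run mice. D53 was the highest and D52 lay below 2 Low Run mice. Its log2 difference was 1.80 (SE 0.63, 95% interval 0.46 to 3.14) and that of Alas2, the first enzyme of haem synthesis in red cells, was 1.76 (SE 0.65, 95% interval 0.37 to 3.14), with Alas2 at 244 CPM in D53 and 23.3 to 76.8 CPM in the other High Run mice. Hba-a1 (1.55) and, named after their values were seen, Hba-a2 (1.76) and Hbb-bt (1.60) went the same way. The globin copies are nearly identical, and the split of reads among them is uncertain. Without D53 the list had 0 members at p under 0.05 and a median of 0.66, voom with sample quality weights also gave 0, and without D57 or D61 the list had 2. Over all genes tested, 575 were higher without D53, 507 with voom weights, 209 without D57 and 279 without D61. In control mice the difference ran in the opposite direction, with a median of -1.72 and 7 members lower in High Control at p under 0.05. Over all 16920 genes, 687 were lower there. For Hbb-bs, Low Control mouse D11 was at 1565 CPM and the other Low Control mice at 336 to 649 CPM. High Control mice were at 211 to 329 CPM. The control contrast was not refitted without D11.

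Atrophy genes driven by FoxO transcription factors had a median log2 difference of 0.56 in which 0 of 20 members had p under 0.05 in either direction. Trim63, encoding the muscle ubiquitin ligase MuRF1, was at 363, 364 and 401 CPM in High Run mice D49, D52 and D53 and at 3834 CPM in D62, while Low Run mice had 308 to 572 CPM. The other muscle ubiquitin ligase gene, Fbxo32, was at 3293 CPM in D62 and between 410.5 and 772 CPM in the other 7 exercised mice. The same mouse was the highest for Foxo1 (332 CPM against 40.4 to 86.3 CPM), Sesn1 (481 against 33.0 to 94.0 CPM) and the glucocorticoid-responsive Fkbp5 (410 against 24.1 to 133.5 CPM), and Trim63 and Foxo1 were named after their values were seen. The median of the list without D62 was -0.02, and 3 members were higher at p under 0.05 without D52 or D68. Over all genes tested, 241 were higher without D52 and 265 without D68. In sedentary mice the highest levels were those of Low Control mouse D9, at 6083 CPM for Trim63 and 3839 CPM for Fbxo32.

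**Figure D4:**
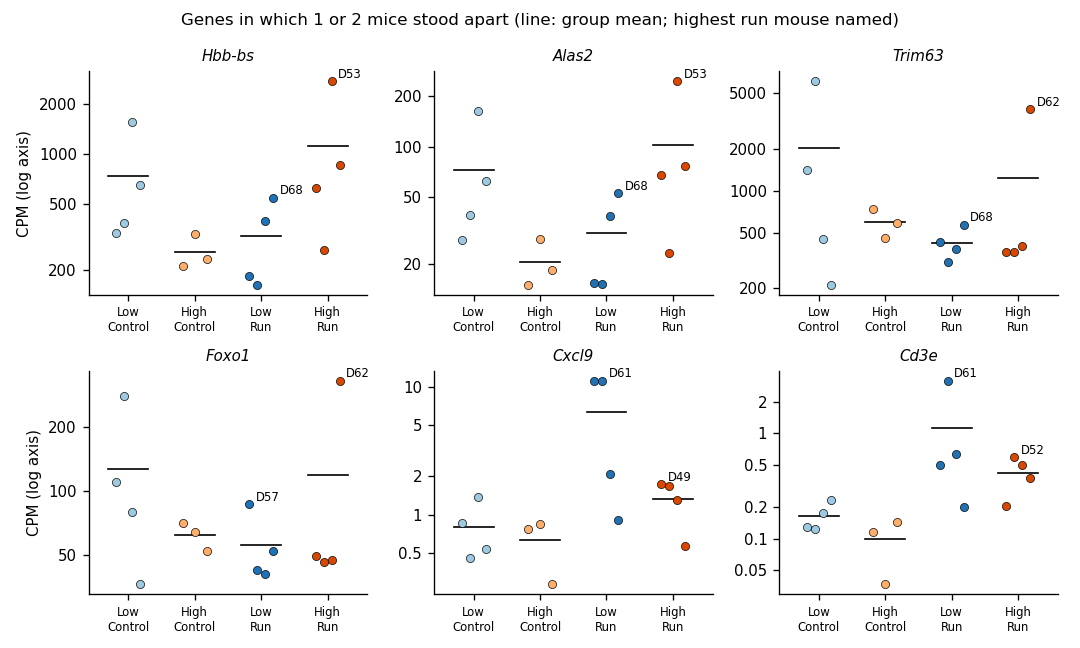
CPM of genes whose group difference rests on 1 or 2 mice (vertical log axes) in each mouse (points) of the 4 groups, with the group mean as a line and the highest mouse of each run group named. D53 is highest for Hbb-bs and Alas2, D62 for Trim63 and Foxo1, and D61 for Cxcl9 and Cd3e.

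Subunits of the respiratory chain had small and mostly negative log2 differences. Of 36 tested complex I subunits, which build the entry point of the respiratory chain, 33 had negative log2 differences with a median of -0.15, and 2 were lower and 0 higher at p under 0.05, against 0.987% and 1.52% of all genes. Over all genes 8836 differences were positive and 8084 negative. The 2 genes were Ndufa1, at 74.6 to 88.5 CPM in High Run and 95.4 to 114.4 CPM in Low Run (-0.35, SE 0.13, 95% interval -0.63 to -0.06), and Ndufa12, at 56.0 to 70.9 CPM and 72.8 to 102.7 CPM (-0.34, SE 0.14, 95% interval -0.63 to -0.05), both without overlap, as were 0.774% of all genes in that direction. Ndufa1 lost p under 0.05 without D57 or D68, and Ndufa12 without D62 or D68. Among subunits of complexes II to V, 38 of 40 were negative with a median of -0.11 and 0 at p under 0.05. Mitochondrial import genes (17 of 25 negative, median -0.06) and fatty acid oxidation genes (11 of 21 negative, median -0.01) had 0 members at p under 0.05, and both medians turned positive without D68 (0.06 and 0.11). The size of the median, but not its sign, moved with single mice in both respiratory chain lists. Averaged over complex I genes, D62 stood at -0.40, D53 at 0.25 and D68 at 0.28 on the log2 scale relative to the mean of the exercised mice. The median of complex I was -0.04 without D62, -0.28 without D53 and -0.08 without D68, and 1, 8 and 0 members were then lower at p under 0.05. Over all genes tested, 126, 404 and 255 were lower in these fits. For complexes II to V the median was -0.005 without D62, -0.27 without D53 and -0.03 without D68. The members then lower at p under 0.05 numbered 0, 6 and 0.

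Several repair and stress genes had differences near 0.5. The heat shock genes Dnajb1, a co-chaperone of Hsp70, and Hspb8, which takes part in chaperone-assisted autophagy of damaged sarcomeric proteins, were lower in High Run (-0.51, SE 0.20 and -0.51, SE 0.18), with 13 of 14 members of that list negative, and both overlapped. Dnajb1 lost p under 0.05 without D61 or D68, and Hspb8 without D57. Hes1, a Notch target that restrains satellite cell differentiation, was at 13.2 to 19.2 CPM in High Run and 15.2 to 27.1 CPM in Low Run (-0.50, SE 0.18, 95% interval -0.88 to -0.13), and -0.39 without D61, where p under 0.05 was lost. Of 20 satellite cell and regeneration genes, 1 was lower and 0 higher, against 0.987% and 1.52% of all genes. In that list 10 differences were positive and 10 negative. Vwf, which endothelial cells secrete for clotting, was at 55.5 to 104.9 CPM in High Run and 30.8 to 63.8 CPM in Low Run (0.68, SE 0.23, 95% interval 0.19 to 1.17), and 0.47 without D52, where p under 0.05 was lost. Of 20 endothelial and mural genes, 1 was higher and 0 lower, against 1.52% and 0.987% of all genes. In that list 12 differences were positive and 8 negative, with a median of 0.07. Of the 36 lists, 23 had 0 members at p under 0.05, among them those of calcium handling, fibre types, antioxidants, proteasome, cytosolic ribosome, splicing and denervation.

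The exercised and sedentary contrasts were then set side by side. The median absolute log2 difference between High and Low was 0.148 in run mice and 0.219 in control mice, and 399 and 592 genes exceeded 1. At p under 0.05 there were 424 genes in run and 992 (5.86%) in control mice, where the smallest adjusted p was 0.704. The contrasts share no mice. Across the 16920 genes, which are not independent replicates, their log2 differences correlated at Pearson's r = -0.248 and Spearman's rho = -0.312, and 40 genes had p under 0.05 in both, 4 in the same and 36 in the opposite direction. Those 40 are 9.43% of the genes of the run contrast and 4.03% of the genes of the control contrast. The medians of 23 of the 36 lists had opposite signs in run and control mice.

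The difference between these contrasts is the interaction of frailty and running. It had 1342 genes (7.93%) at p under 0.05 but 0 (0.0%) at an FDR of 0.1, and its smallest adjusted p was 0.600, so no gene was shown to differ in its frailty contrast between run and control mice. Among the genes described here the smallest unadjusted interaction p was that of Prkd1 (interaction 1.38, SE 0.31, adjusted p = 0.600).

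**Figure D5:**
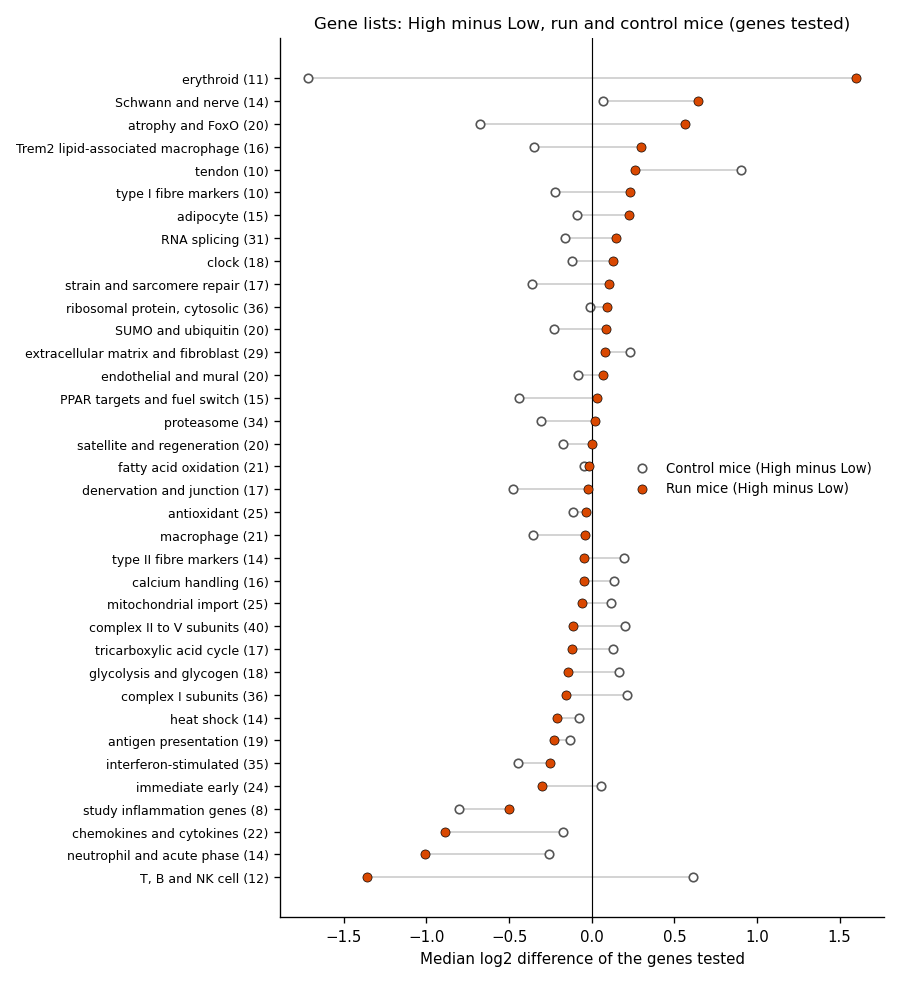
Median log2 difference, High minus Low (horizontal axis), of the genes tested in each of 36 lists (rows, number of genes in brackets), in run mice (filled) and control mice (open). The erythroid list runs from -1.72 in control to 1.60 in run mice, and the Schwann and nerve list from 0.07 to 0.65.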

How the data were processed

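Gastrocnemius RNA from 15 mice was sequenced, 1 library per mouse. Read counts per non-mitochondrial Ensembl gene were made by the authors from properly paired, uniquely placed reads with featureCounts, after alignment by STAR 2.7.9a on build mm10 (Subread 2.0.3 per the submitters' processing notes), and the deposited counts were used unchanged. The deposited variance-stabilised values, on a log2-like scale and made by the authors with DESeq2, served for 1 alternative distance. No column was left out (0).

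Counts were tested with edgeR 4.0.16 (R 4.3.3), with TMM scaling, filterByExpr, 1 mean per group over all 15 mice, the quasi-likelihood F-test and Benjamini-Hochberg adjustment over 16920 genes at FDR 0.1. The SE is the absolute log2 difference over the root of F. Alternatives were DESeq2 1.42.0, limma 3.58.1 voom with quality weights, other scalings and filters, length and GC offsets, the run mice alone, and each run mouse left out. CPM are counts scaled to the TMM library size. Distances used log2 CPM with a prior count of 2 and SciPy 1.17.1. The fits were tested on simulated data for 16920 genes, with 100 genes changed by a log2 of 2 and 100 by 1. At FDR 0.1 edgeR called 97 and 64 of these, with 29 false calls. DESeq2 on all 15 simulated mice called 97 and 73, with 64 false calls.

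Groups follow the labels. Each library is a separate mouse. Symbols came from GENCODE on GRCm38 for 55190 of 55450 genes. Named genes were the 8 study inflammation genes, any genes called at the FDR, the 8 higher and 8 lower protein-coding genes of smallest p without overlap, up to 3 genes of smallest p per list, cell type markers and the 10 most abundant genes. The members and lists were chosen with earlier results of these data known. Some members of these lists are counted but not reported here by name.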

Additional observations from a re-analysis of the deposited data

Results flagged for a closer look

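Of 122 groups of 4 mice checked, 12 held a mouse whose gap to its nearest neighbour took more of the group's range than Dixon's critical value, where chance flags about 1 in 20 groups. These groups are the genes named in the text, several chosen after their values were seen and some moving together, so the number is not read against that rate. High Run mouse D62 had 7 of them. It was high for Trim63 (gap share 0.958, 3834 CPM), Foxo1 (0.965, 332 CPM), Sesn1 (0.876, 481 CPM), Fbxo32 (0.874, 3293 CPM), Fkbp5 (0.845, 410 CPM) and Prkd1 (0.854, 6.99 CPM), and low for Ndufa12 (0.906, 56.0 CPM). High Run mouse D52 was high for Ccl8 (0.886, 3.97 CPM). In Low Run, D66 was low for the myelin genes Mbp (0.871, 21.1 CPM) and Pmp22 (0.862, 36.2 CPM), D61 was high for Kcna2 (0.859, 5.62 CPM), and D68 was high for Fbxo32 (0.888, 772 CPM).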

How the results depend on the processing

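The 0 calls at FDR 0.1 became 3 with DESeq2 on the run mice alone and 6 without a filter on low counts, where Egr1 was joined by 5 genes whose counts came largely from 1 or 2 mice. Genes at p under 0.05 numbered 1384 without a filter, 860 with voom quality weights, and 305 (without D62) to 979 (without D53) with a mouse left out. The distance difference ran from -4.74 to 0.204 with a mouse left out, positive only without D53. With voom weights the log2 difference turned positive for Ccl8 (0.047), Ifi47 (0.028), Iigp1 (0.35) and Mpeg1 (0.16). With a mouse left out, signs turned within the ranges -0.55 to 0.15 for Ifi47, -1.14 to 0.54 for Iigp1, -0.25 to 0.18 for Mpeg1, -2.27 to 0.17 for Cd79a, -0.17 to 1.86 for Trim63, -0.22 to 1.40 for Foxo1, -0.003 to 1.98 for Sesn1, -0.024 to 0.77 for the atrophy median and -1.66 to 0.17 for the T, B and NK cell median. The cause was not tested. Of 61 named genes, 53 kept their direction under each alternative run. No paired analysis was possible because the groups share no mouse. With 4 mice a group, the median distance of 0.492 log2 from an estimate to the end of its interval limits what could be seen.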
